A study of Homo sapiens with 4 samples.

Results

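Plasminogen activation was followed in 5 genes of the 58884 in the deposited table, chosen by name: the activators PLAU and PLAT, the receptor PLAUR and the serpin inhibitors SERPINE2 and SERPINB2. All 5 symbols matched 1 Ensembl identifier each. The rule that picks them uses no measured value, but the 5 were chosen with earlier results of these data known. The data were 4 RNA libraries of 2 human thyroid cancer cell lines, the anaplastic line 8505C and the follicular line FTC-133. Each line was transfected with a vector that overexpresses CRABP1, a cytoplasmic retinoic acid binding protein, or with the empty vector. The groups were thus 8505C with CRABP1, 8505C with vector, FTC-133 with CRABP1 and FTC-133 with vector, with 1 library in each. The labels do not give the time after transfection, whether cells were selected or cloned, or which cultures the RNA came from, so there is no replicate error within a group.

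Urokinase, the product of PLAU, and tissue plasminogen activator, the product of PLAT, are serine proteases that cut plasminogen into plasmin, a broad protease that dissolves fibrin and matrix proteins. PLAUR encodes the urokinase receptor, which holds urokinase on the cell surface by a lipid anchor. SERPINE2, protease nexin-1, inhibits thrombin, urokinase and tissue plasminogen activator outside the cell, and SERPINB2 inhibits urokinase and is largely kept inside the cell. Urokinase and its receptor are known from many carcinomas, where they take part in invasion of surrounding tissue.

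In GENCODE 29 on GRCh38, PLAU (ENSG00000122861) lies on the plus strand of chromosome 10, from 73909177 to 73917497. PLAUR (ENSG00000011422) is on the minus strand of chromosome 19, from 43646095 to 43670547, and SERPINE2 (ENSG00000135919) on the minus strand of chromosome 2, from 223975112 to 224039319. SERPINB2 (ENSG00000197632) is on the plus strand of chromosome 18, from 63871692 to 63903890. PLAU is overlapped on the other strand by C10orf55, at 5.004 to 6.43 TPM. TPM is the number of reads per length of a gene, with every library brought to 1 common total. No strand setting is given in the sources used here, so reads of that pair cannot be told apart. RN7SL368P lies within PLAUR at 0 to 2.85 TPM, and SERPINB10 overlaps SERPINB2 at 0 to 0.351 TPM.

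Promoter windows from 250 bases before to 50 bases after an annotated gene start (RefSeq, GRCh38.p14) are printed 5′ to 3′ on the gene's own strand, because these are the sequences in front of the genes whose levels are compared. Capitals mark matches, on either strand, to 6 short motifs. The CCAAT box is searched as CCAAT, the GC box as GGGCGG, the AP-1 site as TGANTCA, the E-box as CACGTG and the TATA box as TATAAA. The last is AGGTCA, a core of the sites that retinoic acid receptors bind, looked for because CRABP1 carries retinoic acid. It was searched as a single core, so a match does not show such a site. AGGTCA and CACGTG overlap in SERPINE2. For PLAU the window that holds both of its GENCODE transcript starts is shown, and for SERPINE2 the windows of 2 starts.
PLAU, chr10:73910882-73911181, plus strand: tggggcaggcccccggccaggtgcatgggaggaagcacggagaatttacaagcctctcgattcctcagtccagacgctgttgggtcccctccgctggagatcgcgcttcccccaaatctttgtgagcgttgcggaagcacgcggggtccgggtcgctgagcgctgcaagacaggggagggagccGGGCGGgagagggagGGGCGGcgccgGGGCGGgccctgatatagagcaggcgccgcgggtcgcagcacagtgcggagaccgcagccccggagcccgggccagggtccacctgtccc
PLAUR, chr19:43670120-43670419, minus strand: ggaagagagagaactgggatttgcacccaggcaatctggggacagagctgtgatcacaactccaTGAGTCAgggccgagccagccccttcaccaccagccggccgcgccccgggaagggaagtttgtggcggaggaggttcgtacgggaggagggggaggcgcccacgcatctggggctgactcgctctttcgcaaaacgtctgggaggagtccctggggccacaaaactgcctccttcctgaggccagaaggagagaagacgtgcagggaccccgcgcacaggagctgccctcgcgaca
SERPINE2, inner start, chr2:224031429-224031728, minus strand: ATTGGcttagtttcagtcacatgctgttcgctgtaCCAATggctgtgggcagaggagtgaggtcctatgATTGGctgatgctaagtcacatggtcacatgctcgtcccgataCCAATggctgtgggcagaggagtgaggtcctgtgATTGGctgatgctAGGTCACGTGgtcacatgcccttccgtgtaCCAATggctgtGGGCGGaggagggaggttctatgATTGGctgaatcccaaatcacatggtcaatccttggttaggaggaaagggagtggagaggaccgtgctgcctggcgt
SERPINE2, outer start, chr2:224038591-224038890, minus strand: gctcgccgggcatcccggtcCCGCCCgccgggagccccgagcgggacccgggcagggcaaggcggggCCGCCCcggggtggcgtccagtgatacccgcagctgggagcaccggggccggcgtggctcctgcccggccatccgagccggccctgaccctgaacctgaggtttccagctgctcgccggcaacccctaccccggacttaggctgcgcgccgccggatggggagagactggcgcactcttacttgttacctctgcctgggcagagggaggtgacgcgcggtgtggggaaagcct
SERPINB2, chr18:63887455-63887754, plus strand: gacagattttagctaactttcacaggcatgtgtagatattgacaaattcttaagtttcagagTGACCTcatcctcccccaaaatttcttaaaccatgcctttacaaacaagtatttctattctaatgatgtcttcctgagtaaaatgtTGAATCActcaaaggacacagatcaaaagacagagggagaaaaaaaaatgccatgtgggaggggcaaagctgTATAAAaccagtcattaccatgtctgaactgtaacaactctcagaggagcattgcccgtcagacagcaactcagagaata

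The printed window of PLAU held 3 GC boxes, beginning 66, 51 and 40 bases before the start, and had a GC content of 70.0%. Of all 35116 windows, 15.8% hold at least 3. The inner SERPINE2 window held 7 CCAAT boxes in alternating orientation, a number reached by 8 of the 35116 windows, or 0.0228%. Successive boxes began 34 bases apart in 3 cases, 43 in 2 and 35 in 1. The same window held 1 AGGTCA core, beginning 91 bases before the start, which 13.8% of windows have, and an E-box, which 7.26% have. The outer SERPINE2 window held 2 GC boxes and had 73.7% GC. PLAUR had 1 AP-1 match, 186 bases before the start, and SERPINB2 had 1 at 102 bases; 7.71% of windows have one. SERPINB2 also had an AGGTCA core at 188 bases and a TATA box at 30 bases, found in 11.5% of windows, in a window with 39.0% GC. These matches describe letters in the windows and were not tested for use in the cells.

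**Figure D1:**
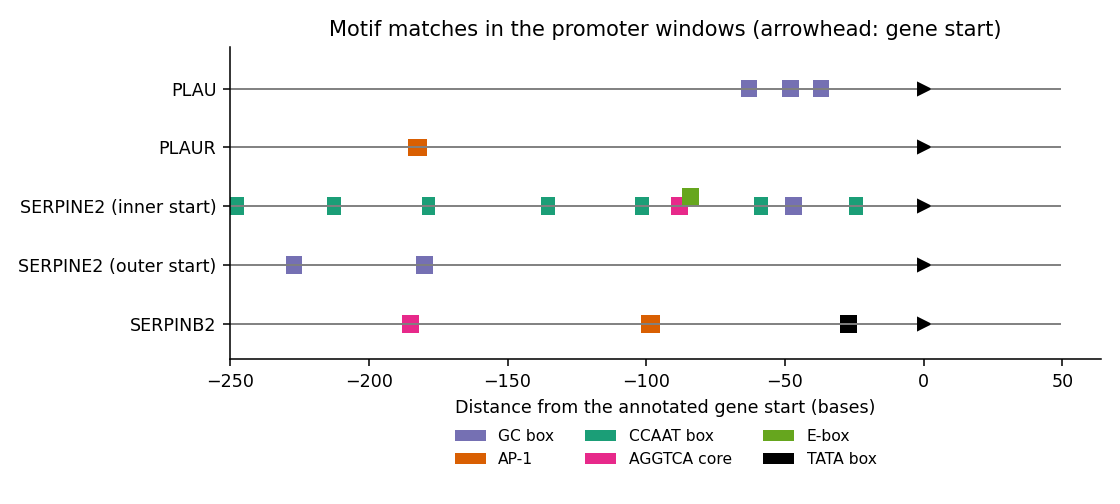
Motif matches in the promoter windows of PLAU, PLAUR, SERPINE2 (2 starts) and SERPINB2, drawn to scale by distance from the gene start in bases; coloured blocks are matches on either strand. The inner SERPINE2 window carries 7 CCAAT boxes along its length, and the printed PLAU window carries 3 GC boxes within 66 bases of its start.

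The libraries rested on 19304250 and 19174557 reads in 8505C with CRABP1 and with vector and on 20309248 and 20331464 in FTC-133, as recovered from the TPM steps. CRABP1 was at 537 and 0 TPM in 8505C with CRABP1 and with vector, and at 385 and 0 TPM in FTC-133. Of the thyroid markers, NKX2-1 was at 113 and 118 TPM in 8505C and at 17.7 and 44.7 TPM in FTC-133, while PAX8 was under 1 TPM in 8505C and at 143 and 100 TPM in FTC-133. TG and TSHR were under 1 TPM in all 4 libraries. The 5 epithelial markers summed to 1365 and 1604 TPM in 8505C with CRABP1 and with vector, and to 169 and 171 TPM in FTC-133. KRT18 led that sum in 8505C, at 869 and 1039 TPM against 73.6 and 74.9 TPM in FTC-133. KRT8 was at 496 and 564 TPM against 87.9 and 88.0 TPM. EPCAM and KRT19 were lower in 8505C, EPCAM at 0.235 and 0.546 TPM against 5.87 and 6.13 TPM in FTC-133. KRT19 was at 0.253 and 0.252 TPM against 1.54 and 1.49 TPM, and CDH1 stayed under 1 TPM in all 4 libraries. The 6 fibroblast markers summed to 72.0 and 55.1 TPM in 8505C with CRABP1 and with vector, and to 352 and 614 TPM in FTC-133. COL3A1 led that sum in 8505C, and COL1A1 and COL1A2 led it in FTC-133. The 5 endothelial markers summed to 115 and 131 TPM in 8505C, mostly CDH5, and to 13.8 and 5.49 TPM in FTC-133. The 6 leukocyte markers summed to 28.97 and 57.0 TPM in 8505C, nearly all CD14, and to 2.94 and 3.77 TPM in FTC-133, mostly CSF1R. The leukocyte marker PTPRC was at or under 0.194 TPM in all 4 libraries. In bulk RNA, fewer cells that express a gene and less RNA per cell cannot be told apart.

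Urokinase RNA was by far the most abundant of the 5. PLAU was at 1567 and 1846 TPM in 8505C with CRABP1 and with vector, and at 1701 and 1507 TPM in FTC-133 with CRABP1 and with vector. It ranked between 36 and 47 among all genes of a library, and its highest library was 1.22 times its lowest. PLAT (ENSG00000104368), on the minus strand of chromosome 8 from 42175233 to 42207724, was at 481 and 558 TPM in 8505C with CRABP1 and with vector, and at 57.0 and 68.0 TPM in FTC-133. Both 8505C libraries were thus far above both FTC-133 libraries. The rank of PLAT was 205 and 164 in 8505C and 2878 and 2280 in FTC-133.

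The receptor gene PLAUR was at 67.3 and 68.9 TPM in 8505C with CRABP1 and with vector, and at 47.6 and 51.8 TPM in FTC-133. Its 8505C libraries lay above its FTC-133 libraries, by a narrow margin. SERPINE2 was at 276 and 242 TPM in 8505C with CRABP1 and with vector, and at 188 and 134 TPM in FTC-133, so that the order of its 4 libraries put 8505C above FTC-133 and CRABP1 above vector within each line. SERPINB2 was barely expressed, at 0.432 TPM from 6 reads and 0.645 TPM from 9 reads in 8505C with CRABP1 and with vector, and at 0.968 TPM from 14 reads and 2.28 TPM from 34 reads in FTC-133. The counting intervals of the 2 8505C libraries, 0.158 to 0.937 TPM with CRABP1 and 0.294 to 1.22 TPM with vector, overlapped each other and that of FTC-133 with CRABP1, 0.528 to 1.62 TPM. FTC-133 with vector, at 1.57 to 3.18 TPM, lay above both 8505C libraries.

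**Figure D2:**
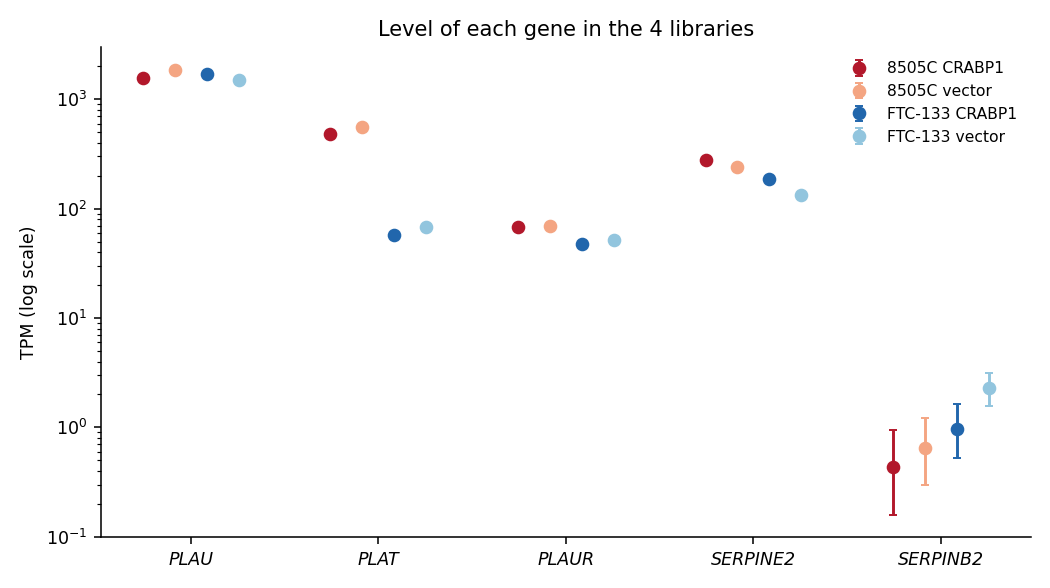
TPM of the 5 genes on a log axis, with 1 point per library and bars for the 95% Poisson interval of the reads, which is smaller than the point for all genes but SERPINB2. PLAT separates the lines, at 481 and 558 TPM in 8505C against 57.0 and 68.0 TPM in FTC-133, while PLAU stays between 1507 and 1846 TPM in all 4 libraries.

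Within a library, where TPM can be set side by side across genes, PLAU was 23.3 and 26.8 times PLAUR in 8505C with CRABP1 and with vector, and 35.8 and 29.1 times PLAUR in FTC-133. PLAT made up 23.5% and 23.2% of the summed TPM of both activators in 8505C with CRABP1 and with vector, and 3.24% and 4.31% in FTC-133. PLAT exceeded SERPINE2 in 8505C, at 1.74 and 2.30 times its TPM with CRABP1 and with vector, and lay below it in FTC-133, at 0.304 and 0.508 times. PLAU was 5.68 and 7.62 times SERPINE2 in 8505C with CRABP1 and with vector, and 9.06 and 11.3 times in FTC-133. The ratio of PLAU or PLAT to SERPINE2 was therefore lower with CRABP1 than with vector in both lines. Other inhibitors of these proteases are not counted in these ratios.

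With CRABP1 in FTC-133, SERPINE2 and PLAU were higher and PLAT lower than with vector, each by less than 2-fold, and the scarce SERPINB2 was lower. Folds here are plain TPM ratios with a 95% Clopper-Pearson interval of the reads, which covers counting error only. SERPINE2, at 188 TPM with CRABP1 and 134 TPM with vector, had a ratio of 1.40 (1.36 to 1.45). PLAU, at 1701 and 1507 TPM, had a ratio of 1.13 (1.11 to 1.15). PLAT had a ratio of 0.838 (0.790 to 0.890) and PLAUR of 0.918 (0.846 to 0.995), whose interval ended just under 1. SERPINB2, from 14 reads with CRABP1 and 34 with vector, had a ratio of 0.425 (0.211 to 0.813), which is past 2-fold as a plain ratio. On the log2 scale of TPM + 1, which understates the ratio of low genes, SERPINB2 differed by -0.74 and SERPINE2 by 0.48. None of the 5 was past 2-fold on that scale, where 10.9% of the 19899 genes averaging 1 TPM or more were. At 1.5-fold the share was 22.7%, and among protein-coding genes with 20 or more reads 3.53% were past 2-fold. The median log2 ratio of the 5 was -0.12, against 0.055 over all those genes, and 83.7% of all genes had a lower ratio than SERPINE2. Markers differed between the same libraries. The fibroblast sum was 352 TPM with CRABP1 and 614 TPM with vector, although PDGFRB went the other way, at 18.5 and 9.60 TPM. The endothelial sum was 13.8 TPM with CRABP1 and 5.49 TPM with vector, with TIE1 at 8.76 and 0.877 TPM. Thyroid factors went both ways, with NKX2-1 at 17.7 and 44.7 TPM, PAX8 at 143 and 100 TPM and FOXE1 at 15.2 and 8.06 TPM. The part of these markers in the differences was not tested.

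In 8505C the pattern was similar for SERPINE2 and PLAT and opposite for PLAU. SERPINE2, at 276 TPM with CRABP1 and 242 TPM with vector, had a ratio of 1.14 (1.11 to 1.17). PLAT, at 481 and 558 TPM, had a ratio of 0.862 (0.844 to 0.881), and PLAU, at 1567 and 1846 TPM, of 0.849 (0.834 to 0.864). PLAUR, at 0.977 (0.910 to 1.05), and SERPINB2, at 0.669 (0.196 to 2.10) from 6 and 9 reads, had intervals that included 1. SERPINB2 was under a mean of 1 TPM here, so 4 of the 5 entered the count. None was past 2-fold, where 7.77% of 17561 genes were. The share of all genes was 15% at 1.5-fold, and 0.733% of protein-coding genes with 20 or more reads were past 2-fold. The median log2 ratio of the 4 was -0.12, against 0.016 over all genes, and 75.0% of all genes had a lower ratio than SERPINE2. Between the same libraries CD14 was at 28.6 TPM with CRABP1 and 56.5 TPM with vector, and the fibroblast sum was 72.0 and 55.1 TPM; their part in these differences was not tested.

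**Figure D3:**
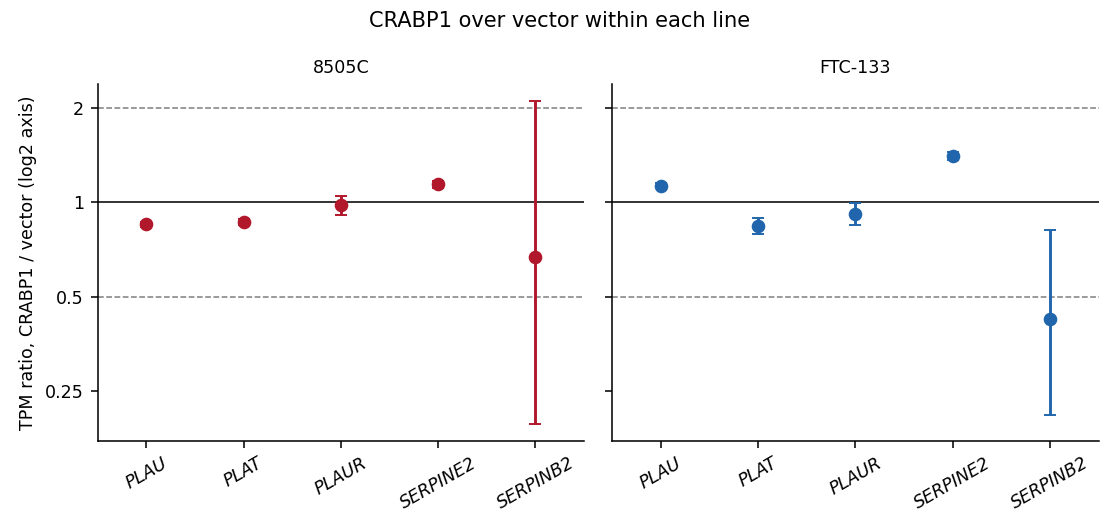
TPM ratio of CRABP1 over vector for the 5 genes in 8505C (left) and FTC-133 (right), on a log2 axis with 95% Clopper-Pearson intervals of the reads; dashed lines mark 2-fold. SERPINE2 lies above 1 and PLAT below 1 in both lines, PLAU is below 1 in 8505C and above 1 in FTC-133, and the intervals of SERPINB2 are wide.

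Over both lines, where limma took the lines as the replicates with line as a term and 1 residual degree of freedom, no gene of the 5 passed. SERPINE2 had a log2 difference of 0.34 (SE 0.119, unadjusted p = 0.0531, adjusted p = 0.920) and was higher with CRABP1 in both lines. PLAT had -0.23 (SE 0.0912, unadjusted p = 0.0691, adjusted p = 0.920 by limma) and was lower in both lines. PLAUR, at -0.08, and SERPINB2, at -0.47, were also lower in both, with adjusted p of 0.937 and 0.924 by limma. By limma 0 of the 5 had an unadjusted p under 0.05, and among 19513 genes 0.00512% passed after adjustment, which is CRABP1 alone, and 4.73% before it. No label says that these libraries are separate cultures, so each p-value reflects the scatter of 4 libraries and nothing wider. With median-ratio scaling PLAT had an unadjusted p of 0.0490 and an adjusted p of 0.943 by limma.

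The CRABP1 ratio of PLAU differed between the lines by -0.41 on the log2 scale, 8505C minus FTC-133, with a counting interval of -0.45 to -0.38. For SERPINE2 the difference was -0.30 (-0.36 to -0.24), a smaller increase in 8505C. For PLAT it was 0.041 (-0.050 to 0.13) and for PLAUR 0.090 (-0.065 to 0.24), both with intervals that include 0. An interaction could not be tested, since 4 libraries leave no residual degree of freedom for it.

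Between the lines, PLAT was the gene that differed most. It was 8.44-fold higher in 8505C than in FTC-133 with CRABP1 (8.05 to 8.84), at 481 and 57.0 TPM, and 8.20-fold higher with vector (7.86 to 8.56), at 558 and 68.0 TPM. Of all genes, 98.3% had a lower ratio in either transfection. On the TPM + 1 scale PLAT was past 2-fold in both transfections. With CRABP1 it was 1 of the 4 genes averaging 1 TPM or more, where 34.3% of 19603 genes were past 2-fold, 11.3% higher and 23% lower. With vector it was 1 of 5, where 33.7% of 19470 genes were, 12.1% higher and 21.6% lower. At 1.5-fold the shares of all genes were 52.3% and 52.5% with CRABP1 and with vector, and 26.7% and 26.5% of protein-coding genes with 20 or more reads were past 2-fold. SERPINE2 was 1.47-fold higher in 8505C with CRABP1 (1.43 to 1.51) and 1.81-fold higher with vector (1.76 to 1.87), and PLAUR was 1.41-fold (1.31 to 1.53) and 1.33-fold higher (1.23 to 1.43). SERPINB2 had ratios of 0.446 (0.140 to 1.24) and 0.283 (0.119 to 0.603) with CRABP1 and with vector. PLAU was 0.921 times its FTC-133 level in 8505C with CRABP1 (0.905 to 0.937) and 1.22 times with vector (1.20 to 1.25); with median-ratio scaling the log2 ratio with CRABP1 was 0.076 in place of -0.12. That scaling brought the median log2 ratio of all genes to -0.022 with CRABP1, against -0.21 as deposited, and to -0.026 with vector, against -0.17.

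Taking the transfections as the replicates of a line, limma called 3 of the 5 genes, all higher in 8505C, where 35.2% of 19513 genes were called and 13% were called higher; before adjustment 49% had a p under 0.05. The log2 differences were 3.04 for PLAT (SE 0.0912, adjusted p = 0.00336), 0.70 for SERPINE2 (SE 0.119, adjusted p = 0.0251) and 0.45 for PLAUR (SE 0.1001, adjusted p = 0.0421). Each was higher in 8505C in both transfections. PLAU, at 0.087 (SE 0.158, adjusted p = 0.694 by limma), and SERPINB2, at -0.73 (SE 0.395, adjusted p = 0.229 by limma), did not pass. Without the filter on low genes, or without the mean-variance trend, only PLAT passed. SERPINE2 then had adjusted p of 0.0866 and 0.0821 by limma, and PLAUR 0.0934 and 0.128. Over all genes, limma then called 1182 of 36025 without the filter and 4589 of 19513 without the trend. The median of the 5 log2 differences was 0.45, against -0.19 over all genes. The fibroblast markers, with sums of 72.0 and 55.1 TPM in 8505C against 352 and 614 TPM in FTC-133, differed between the lines too. The epithelial sum, mostly KRT8 and KRT18, was 1365 and 1604 TPM in 8505C against 169 and 171 TPM in FTC-133. EPCAM went the other way, at 0.235 and 0.546 TPM against 5.87 and 6.13 TPM, as did KRT19. The endothelial sum was 115 and 131 TPM in 8505C against 13.8 and 5.49 TPM in FTC-133. Of the leukocyte markers CD14 was at 28.6 and 56.5 TPM in 8505C against 0.345 and 0.669 TPM in FTC-133, while CSF1R went the other way, at 0.115 and 0.267 TPM against 2.35 and 2.995 TPM. The part of these markers in these differences was not tested.

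**Figure D4:**
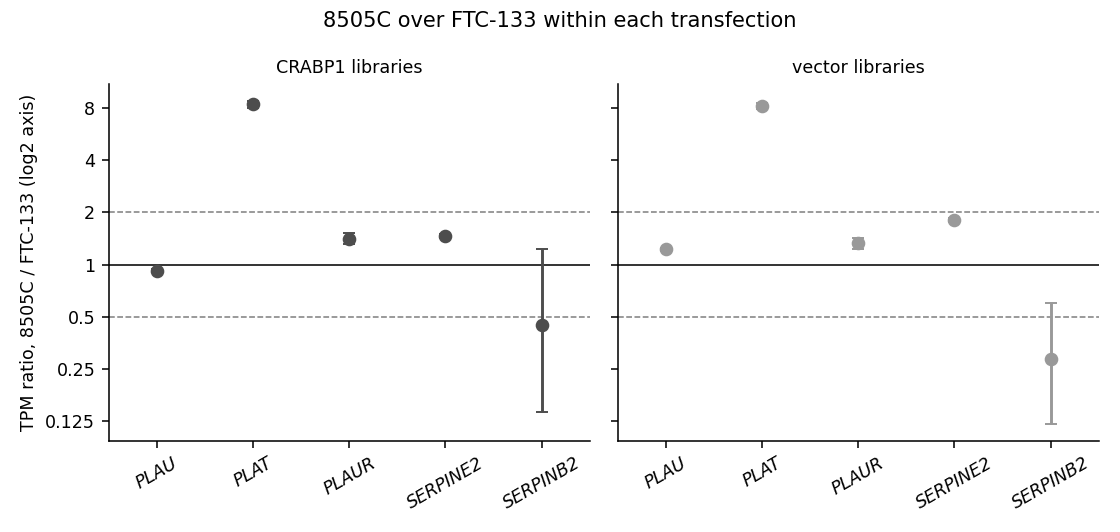
TPM ratio of 8505C over FTC-133 for the 5 genes in the CRABP1 libraries (left) and the vector libraries (right), on a log2 axis with 95% Clopper-Pearson intervals of the reads; dashed lines mark 2-fold. PLAT stands at 8.44 and 8.20, SERPINE2 at 1.47 and 1.81, and PLAUR at 1.41 and 1.33.

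The genes whose profile over the 4 libraries was nearest to each of the 5 were found by Euclidean distance of centred log2(TPM + 1) among protein-coding genes averaging 10 TPM or more. With only 4 points per profile, this describes shape and nothing more. PLAT was nearest to ST3GAL5 at a distance of 0.146, EFHD2 at 0.164 and CALHM2 at 0.166; EFHD2 stood at 778 and 838 TPM in 8505C with CRABP1 and with vector, and at 93.3 and 121 TPM in FTC-133. SERPINE2 was nearest to COQ7 (0.0404), PHF20L1 (0.0576) and TRIM5 (0.0607). PLAU was nearest to TMEM179B (0.0297), ZNHIT3 (0.0317) and VPS25 (0.0427), and PLAUR to DENND5B (0.0294), YOD1 (0.0307) and WBP1L (0.0356). SERPINB2 was nearest to ZC3HAV1L (0.0581), FRMD4A (0.0897) and PGM1 (0.125).

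Of the wider plasminogen system, a list of 37 genes that act on, with or beside these 5, plasminogen itself (PLG) was listed at 0 TPM in all 4 libraries. Of the 25 genes of the list that limma fitted, 6 were higher and 11 lower in 8505C than in FTC-133, where 13% and 22.2% of all genes were called in those directions. The list's median log2 difference was -0.63, and with median-ratio scaling it was -0.46 with 7 higher and 10 lower. Without the filter 36 were fitted, with 0 higher and 4 lower, where 441 of 36025 genes were called higher and 741 lower. Without the trend 1 of 25 was higher and 8 lower, where 1530 of 19513 genes were called higher and 3059 lower.

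Among surface receptors for plasminogen, limma called 2 of 4 higher and 1 lower in 8505C, where 13% of all genes were called higher and 22.2% lower. ENO1, a glycolytic enzyme that also binds plasminogen at the cell surface, was at 3341 and 3768 TPM in 8505C with CRABP1 and with vector, and at 1254 and 1950 TPM in FTC-133 (log2 difference 1.18, SE 0.174, adjusted p = 0.0193 by limma). ANXA2, which with S100A10 forms a docking complex for plasminogen and tissue plasminogen activator, was at 984 and 1020 TPM in 8505C and at 452 and 614 TPM in FTC-133 (0.93, SE 0.143, adjusted p = 0.0210). S100A10 was at 1136 and 1151 TPM in 8505C and at 1342 and 1867 TPM in FTC-133 and did not pass (adjusted p = 0.102 by limma). PLGRKT, a membrane receptor for plasminogen named after its values were seen, was lower in 8505C, at 19.7 and 18.1 TPM against 40.4 and 34.7 TPM in FTC-133 (-0.95, SE 0.116, adjusted p = 0.0138 by limma). Of the further inhibitors, SERPINI1, neuroserpin, lay between 5.25 and 6.26 TPM in all 4 libraries. SERPINA5, protein C inhibitor, was at 0.368 and 1.47 TPM in 8505C and at 8.89 and 4.06 TPM in FTC-133 (adjusted p = 0.0643 by limma), and SERPINE3 stayed between 0.423 and 1.13 TPM.

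Clearance receptors take activator and inhibitor complexes into the cell. Of the 6 genes fitted in this group, not all of them such receptors, limma called 1 higher and 2 lower in 8505C. The shares of all genes called were 13% higher and 22.2% lower. MRC2, a collagen receptor that associates with the urokinase receptor, was lower in 8505C, at 35.3 and 46.9 TPM with CRABP1 and with vector, against 91.1 and 114 TPM in FTC-133 (log2 difference -1.31, SE 0.0982, adjusted p = 0.00686 by limma). SORL1 was at 0.213 and 0.273 TPM in 8505C and at 10.5 and 13.1 TPM in FTC-133 (-3.36, SE 0.252, adjusted p = 0.00682). VLDLR, a relative of LRP1 named after its values were seen, was higher in 8505C, at 45.4 and 33.0 TPM against 9.45 and 16.4 TPM (1.56, SE 0.330, adjusted p = 0.0378 by limma). LRP1, the main receptor for such complexes, was at 32.0 and 57.8 TPM in 8505C and at 85.3 and 81.2 TPM in FTC-133, and did not pass (adjusted p = 0.0617 by limma). IGF2R, at 115 and 101 TPM in 8505C and 75.4 and 83.8 TPM in FTC-133, did not pass either (adjusted p = 0.0752).

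Among proteases, MMP14, a membrane-bound metalloproteinase that can cut the urokinase receptor, showed the widest gap of the list, at 18.9 and 33.5 TPM in 8505C with CRABP1 and with vector, against 1670 and 1621 TPM in FTC-133 (log2 difference -5.97, SE 0.236, adjusted p = 0.00356 by limma). CTSB, a lysosomal protease that can activate pro-urokinase, was at 388 and 419 TPM in 8505C and at 586 and 665 TPM in FTC-133 (-0.63, SE 0.0979, adjusted p = 0.0214). CTSL was lower as well, at 349 and 347 TPM against 561 and 453 TPM (-0.53, SE 0.123, adjusted p = 0.0449). MMP3 was higher in 8505C, at 4.47 and 6.15 TPM, against 1.43 and 1.09 TPM in FTC-133 (1.47, SE 0.298, adjusted p = 0.0348).

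Of the surface partners of the urokinase receptor, limma called 2 of 8 higher and 5 lower in 8505C. Over all genes, 13% were called higher and 22.2% lower. ITGB1 was higher in 8505C, at 1112 and 1118 TPM with CRABP1 and with vector, against 607 and 626 TPM in FTC-133 (log2 difference 0.85, SE 0.103, adjusted p = 0.0137 by limma). ITGA5 was lower, at 89.6 and 113 TPM against 265 and 367 TPM (-1.62, SE 0.0970, adjusted p = 0.00512), as was ITGB3, at 10.5 and 8.77 TPM against 87.2 and 47.1 TPM (-2.62, SE 0.202, adjusted p = 0.00714). ITGA3, at 577 and 579 TPM in 8505C and 783 and 737 TPM in FTC-133, did not pass (adjusted p = 0.0565 by limma). The formyl peptide receptors FPR1 and FPR2, which respond to fragments of the urokinase receptor, were nearly absent from 8505C. FPR2 was at 0 and 0.0542 TPM in 8505C and at 15.1 and 6.44 TPM in FTC-133 (adjusted p = 0.0135 by limma), and FPR1 was listed at 0 TPM in both 8505C libraries and at 3.95 and 2.20 TPM in FTC-133 (adjusted p = 0.0348).

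With CRABP1 against vector, few genes of this list passed 2-fold on the TPM + 1 scale. In FTC-133, 27 of the 37 averaged 1 TPM or more, with a median log2 ratio of 0.043 (-0.022 with median-ratio scaling); 1 was higher and 1 lower by 2-fold on that scale, where 6.02% and 4.92% of all genes were. As plain TPM ratios 3 more were past 2-fold, named after their values were seen: SERPINA5 at 2.19 (1.67 to 2.85), F12, a coagulation protease, at 2.44 (1.40 to 4.42), and FPR3 at 0.434 (0.226 to 0.798). FPR2 was at 15.1 TPM with CRABP1 and 6.44 TPM with vector, a ratio of 2.34 (1.89 to 2.89), and ST14, matriptase, an activator of pro-urokinase, was at 0.506 and 2.32 TPM from 12 and 55 reads, a ratio of 0.218 (0.110 to 0.425). In 8505C, 21 did, with a median of -0.052, and 0 were higher and 1 lower by 2-fold on the TPM + 1 scale, where 3.7% and 4.07% of all genes were. The lower gene was MMP12, at 0.421 and 2.20 TPM from 4 and 21 reads, a ratio of 0.191 (0.0477 to 0.566).

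**Figure D5:**
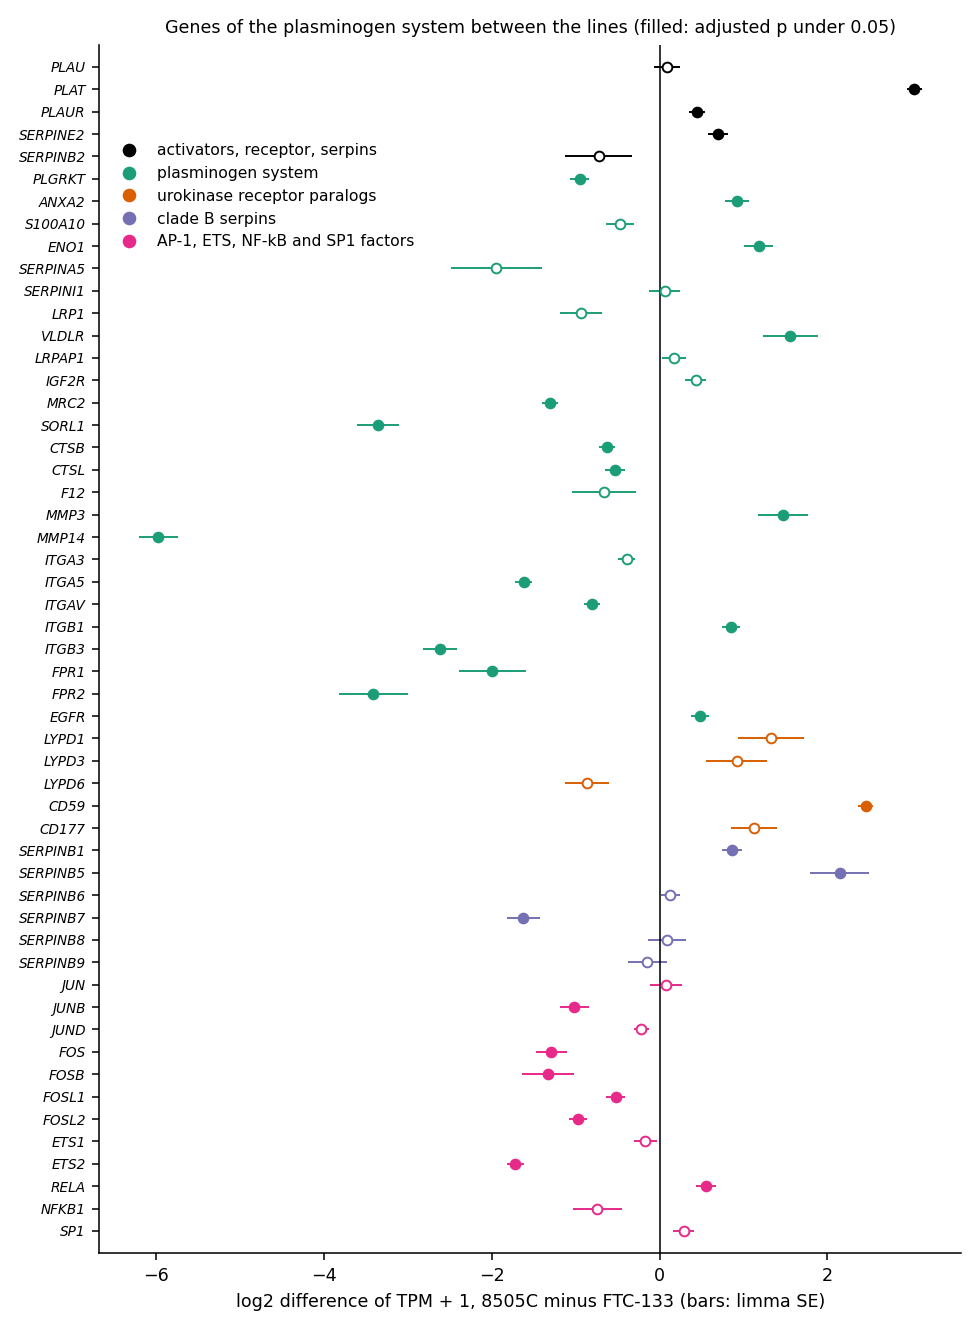
Log2 difference of TPM + 1, 8505C minus FTC-133, for every gene of the lists that limma fitted, with bars for the standard error; filled points passed an adjusted p of 0.05 and open points did not. PLAT is at 3.04 on the higher side, while MMP14 is at -5.97, FPR2 at -3.41 and SORL1 at -3.36 on the lower side.

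Paralogs and possible regulators were described in the same way. Of 8 genes that share the domain of the urokinase receptor, 5 were fitted, and limma called CD59, a complement regulator with the same lipid anchor, at 326 and 373 TPM in 8505C with CRABP1 and with vector, against 58.0 and 67.7 TPM in FTC-133 (log2 difference 2.46, SE 0.0910, adjusted p = 0.00342). CD177, LYPD1 and LYPD6 did not pass (adjusted p = 0.0513, 0.0724 and 0.0803 by limma). Thus 1 of these 5 was called higher in 8505C and 0 lower, while limma called 13% of its 19513 genes higher and 22.2% lower. With median-ratio scaling 2 of 5 were higher, beside 3226 of 19438 genes. Without the trend 2 were, beside 1530 of 19513, and without the term for transfection 3 were, beside 2890 of 19513. Dropping the filter left 1 of 7 higher, beside 441 of 36025 genes. Of 12 other clade B serpins, 6 were fitted, with 2 higher and 1 lower in 8505C. Those directions held 13% and 22.2% of all genes. Without the filter 11 were fitted and 0 were called either way, where 441 of 36025 genes were called higher and 741 lower. Without the trend 0 of these 6 serpins were higher and 1 lower, where 1530 of 19513 genes were called higher and 3059 lower. SERPINB5, maspin, was at 56.8 and 47.9 TPM in 8505C and at 7.44 and 16.1 TPM in FTC-133 (2.14, SE 0.347, adjusted p = 0.0231 by limma), and in FTC-133 its ratio of CRABP1 to vector was 0.462 (0.381 to 0.562). SERPINB1, an inhibitor of neutrophil proteases, was higher at 118 and 150 TPM, against 70.96 and 73.9 TPM, and SERPINB7 lower at 2.24 and 3.13 TPM, against 8.26 and 12.7 TPM (adjusted p = 0.0168 and 0.0139 by limma). SERPINB6 lay between 27.1 and 31.2 TPM in all 4 libraries.

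Of 12 AP-1, ETS, NF-kB and SP1 transcription factors known to bind the urokinase gene, 1 was higher and 6 lower in 8505C by limma, where 13% and 22.2% of all genes were called in those directions, and 4 were lower with median-ratio scaling. Without the filter 0 were higher and 1 lower, where 441 of 36025 genes were called higher and 741 lower. Without the trend 0 were higher and 4 lower, where 1530 of 19513 genes were called higher and 3059 lower. FOSL1, the most abundant of them, was at 224 and 188 TPM in 8505C with CRABP1 and with vector, against 293 and 299 TPM in FTC-133 (log2 difference -0.52, SE 0.116, adjusted p = 0.0410). ETS2 was at 32.1 and 33.2 TPM in 8505C, against 113 and 107 TPM (-1.72, SE 0.103, adjusted p = 0.00511 by limma). FOS and FOSB were also lower, at -1.29 and -1.33 (adjusted p = 0.0180 and 0.0461 by limma), and ETS1 and JUND did not pass (adjusted p = 0.376 and 0.147 by limma). RELA, which was the factor called higher, was named after its values were seen, at 53.4 and 55.4 TPM in 8505C against 38.9 and 34.6 TPM in FTC-133 (adjusted p = 0.0372 by limma). With CRABP1 in FTC-133 the 12 had a median log2 ratio of 0.24, against 0.055 over all genes. In 8505C the 11 that averaged 1 TPM or more had a median of -0.051, against 0.016. None was past 2-fold in either line, where 10.9% of all genes were in FTC-133 and 7.77% in 8505C. Among protein-coding genes with 20 or more reads those shares were 3.53% and 0.733%.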

How the data were processed

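RNA had been extracted with Trizol and prepared by Illumina protocols, per the labels' protocols. The authors deposited 1 table of TPM values for 58884 Ensembl identifiers. FastQC, Trimmomatic 0.38, featureCounts 2.0.0 and GRCh38 are named in the submitters' processing notes. Which aligner, annotation release and strandedness they used is not given in the sources used here. A table of gene names covered 58472 identifiers, and GENCODE 29 gave union exon lengths for 58611.

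Whole reads were recovered as TPM times exon length over a constant of each library. Of values worth 50 reads or fewer, 90.5% to 91.6% came within 0.02 of a whole read. The reads were rounded and served only for depths, floors and 95% intervals (Clopper-Pearson for ratios, Poisson for levels), which cover counting error only.

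Ratios were taken on log2(TPM + 1), kept where the pair averaged 1 TPM or more, and read against a 2-fold rule; 1 library per group gives no p-value within a line. All genes were fitted in limma 3.58.1 (R 4.3.3), with line and transfection as terms, a mean-variance trend and Benjamini-Hochberg adjustment at 0.05, and the script was tested on simulated data. Python 3.11.15, pandas 2.3.3, NumPy 2.4.6 and SciPy 1.17.1 were used. Other settings were a smaller pseudocount (0.1), dropping the filter or raising it to 5 TPM, median-ratio scaling, leaving out mitochondrially encoded genes, a threshold of 1.5-fold, no trend, and no term for the other factor. A count restricted to protein-coding genes with 20 or more reads was added after seeing the data.

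List genes were named where they passed 2-fold in a line, passed it between the lines in both transfections, or were among the 3 highest of their role. The 5 genes and all lists were chosen with earlier results of these data known, and the promoter motifs after the windows had been read. Other genes of the plasminogen system are not reported here. Promoter windows are RefSeq's, on GRCh38.p14.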

Additional observations from a re-analysis of the deposited data

Results flagged for a closer look

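PLAU moved in opposite directions with CRABP1 in the lines: its TPM ratio of CRABP1 over vector was 0.849 in 8505C and 1.13 in FTC-133, and each counting interval lay on its own side of 1. The log2 ratios differed by -0.41, 8505C minus FTC-133. The rise in FTC-133 depended in part on scaling. On the TPM + 1 scale it was 0.17, against 0.11 with median-ratio scaling and 0.12 with mitochondrially encoded genes removed. The 8505C value was -0.24, against -0.26 and -0.25, so no sign changed. With 1 library per group the difference was not tested.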

How the results depend on the processing

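In FTC-133, 0 of the 5 genes were past 2-fold, and 1 (SERPINB2) was with a pseudocount of 0.1 or at 1.5-fold. Over all genes 1773 were higher and 1384 lower with that pseudocount, and 2598 and 1928 at 1.5-fold. Between the lines with vector 1 (PLAT) was past 2-fold, against 3 at 1.5-fold. With a pseudocount of 0.1 or mitochondrially encoded genes removed 2 were, the other being SERPINB2, lower in 8505C (log2 -1.67 and -1.16). With median-ratio scaling 2 were, the other being SERPINE2, higher at 1.002. Over all genes 2362 were higher and 4208 lower, against 2849 and 4883 with that pseudocount and 2702 and 5149 without mitochondrially encoded genes. The counts were 2827 and 3744 with that scaling, and 3905 and 6323 at 1.5-fold. The median log2 ratio of CRABP1 over vector was 0.026 at 5 TPM in FTC-133, where SERPINB2 drops out, and -0.20 without a filter in 8505C, where it enters. The median between the lines was 0.63 at 5 TPM and 0.55 with median-ratio scaling in the vector libraries, and 0.72 with that scaling in the CRABP1 libraries. By limma 3 of the 5 differed between the lines, and 1 did without a filter or without a trend; the cause was not tested. Over all genes with CRABP1 in FTC-133, 1198 were higher and 979 lower by 2-fold, against 354 and 237 at 5 TPM and 263 and 187 among protein-coding genes that had 20 reads or more. In 8505C the counts were 649 and 715, against 97 and 121 at 5 TPM, 28 and 60 among those protein-coding genes, and 1117 and 1162 without a filter. Between the lines limma called 6877 of 19513 genes, 1182 of 36025 without a filter and 4589 of 19513 without a trend. SERPINB2, with 6 to 34 reads, is the gene that depth limits most. The labels give no replicate numbers to use as a block; line was the block in the limma fit of CRABP1 against vector, and transfection in that of the lines.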
